A study of Mus musculus with 28 samples.

Results

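Small-intestinal organoids treated with BMP4 were compared directly with organoids treated with BMP7. The comparison took the 3 BMP4 samples and the 3 BMP7 samples that bear the replicate numbers II, III and VI, which are 6 of the 20 samples of the BMP table and of 28 samples in the series. All were epithelial organoids of wild-type C57BL/6 mice, that is, crypt-derived cultures grown in a gel matrix. Crypts were first seeded in ENR medium, whose letters commonly stand for EGF, Noggin and R-spondin, with no Bmp or Tgfb ligand added, and the medium during treatment is not given in the sources used here. Recombinant BMP4 or BMP7 was added at 500 ng/ml for 24 h, and 4 untreated samples of the same table (replicates II, III, IV and VI) served as controls. By its title the study concerns the part of Tgfb family ligands in the last maturation steps of enterocytes at the tip of the villus. No label says whether replicates were separate animals or cultures, so the p-values measure the spread between these samples, which may be technical.

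BMP4 and BMP7 are secreted dimeric ligands that bind pairs of type I and type II serine/threonine kinase receptors. The activated receptors phosphorylate Smad1, Smad5 and Smad9, which join Smad4 and enter the nucleus, while Tgfb and activins act through Smad2 and Smad3. BMP4 is closest to BMP2, and BMP7 to BMP5 and BMP6, and the subgroups differ in the type I and type II receptors they prefer. In the intestine BMP activity is low in the crypt, where stem cells divide, and high along the villus, where enterocytes mature.

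Depth was similar, at 22050461 to 23439057 recovered reads in the 6 samples. Values are the authors' normalized counts, that is, gene counts divided by a size factor for each sample, and their sum was 26232395 ± 706629 with BMP4 and 20873343 ± 621913 with BMP7 (SD, n = 3 each). Mitochondrially encoded genes took 5.06% ± 0.97 and 4.57% ± 1.05 of that sum (SD, n = 3 each). Correlations of log2 values across genes were 0.975 to 0.984 within BMP4, 0.978 to 0.981 within BMP7 and 0.878 to 0.917 between the ligands. Of the 6 epithelial markers tested, Vil1 (1.27) and Cdh17 (1.03) were higher with BMP4, Krt18 (-0.93) and Cdh1 (-0.77) were lower, and Krt8 and Epcam did not pass. Epcam had 34300, 33900 and 39200 normalized counts with BMP4 and 42000, 36200 and 44000 with BMP7. Its ranges overlapped between the ligands, and its difference of -0.18 became -0.51 with the same total, -0.74 under quantile normalization and -0.30 by edgeR, where it passed as lower. Most markers of fibroblasts, endothelium, blood cells and nerve were near 0. Col3a1 had at most 1.14 normalized counts, Cdh5 at most 1.92 and Ptprc had 3.59 to 21.3, while Pecam1 was well above them at 583 to 1030.

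BMP4 and BMP7 left the organoids with very different transcriptomes. By limma on log2(value + 1), with Benjamini-Hochberg adjustment over 14746 genes and a threshold of 0.05, 8818 genes (59.8%) differed between the ligands, 4190 higher with BMP4 (28.4%) and 4628 lower (31.4%). Differences of at least 4-fold were found in 600 genes that were higher with BMP4 (4.07%) and 784 that were lower (5.32%). This fit left out the replicate numbers, and with them as a block in limma 9976 genes differed. The median log2 difference of all genes tested by the main fit was 0.00. When every sample was instead scaled to the same total, that median moved to -0.325, and 2668 genes were higher against 6641 lower. Of the called genes 47.5% were higher with BMP4 by the deposited scaling, 28.7% by equal totals and 40.9% by edgeR on recovered reads, where the median of all genes was -0.107. Every BMP4 sample was above every BMP7 sample in 30.8% of genes and below in 32.5%. Across the 329 genes of the lists described here, no gene called by the deposited scaling changed its sign under the same total, quantile normalization, edgeR or DESeq2. Among genes it did not call, Klf5, Tpm1, Actb and Krt8 turned from just above 0 to lower with BMP4 and passed under quantile normalization, Tpm1 also with the same total.

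**Figure D1:**
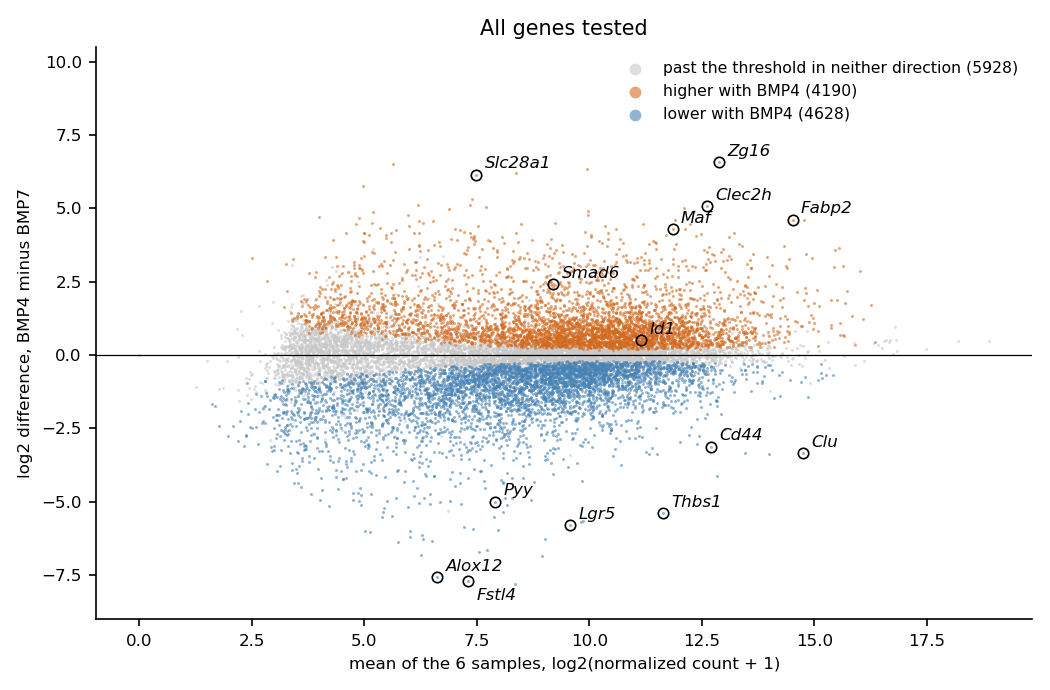
Each point is 1 of the 14746 genes tested, with the mean of the 6 samples as log2(normalized count + 1) on the x axis and the log2 difference, BMP4 minus BMP7, on the y axis. Orange points (4190) were higher and blue points (4628) lower with BMP4 at a limma adjusted p under 0.05, and circled genes are named in the text, from Zg16 at 6.57 to Fstl4 at -7.70.

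Several of the genes with the largest differences in favour of BMP4 are known for absorption or metabolism in enterocytes. Zg16 (ENSMUSG00000049350), a lectin of zymogen and mucin granules, had 15900, 15500 and 13500 normalized counts with BMP4 in replicates II, III and VI, and 167, 149 and 153 with BMP7. Controls lay between 266 and 511, so BMP4 samples were far above and BMP7 samples below every control. The log2 difference was 6.57 ± 0.30 (SE) with a limma adjusted p of 1.42e-11, a 95.7-fold ratio of the means. All later values per ligand keep the order II, III, VI, all log2 differences are BMP4 minus BMP7 on the log2(value + 1) scale with their SE, and all adjusted p-values are limma's unless another tool is named.

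Transporters and enzymes, given here out of rank order, were among the other genes with the largest differences. Slc28a1 (ENSMUSG00000025726), which carries pyrimidine nucleosides, had 341, 338 and 379 normalized counts with BMP4 and 0.907, 4.55 and 10.6 with BMP7. The neutral amino acid transporter Slc6a19 (ENSMUSG00000021565) had 9180, 9060 and 11600 against 250, 312 and 438, a log2 difference of 4.92 ± 0.35. Slc2a2 (ENSMUSG00000027690), the glucose transporter GLUT2, had 8690, 8560 and 4770 against 165, 347 and 414. The arginase Arg2 (ENSMUSG00000021125) had 9060, 8700 and 7810 against 186, 240 and 396, and the lectin-like Clec2h (ENSMUSG00000030364) 11800, 12800 and 12000 against 258, 383 and 484. In each of these genes every BMP4 sample was above every BMP7 sample, as the rule for naming them required.

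That rule took the 12 largest differences in each direction among called genes whose groups did not overlap and whose 6 samples averaged 50 normalized counts or more, and it also named Slc16a9 (log2 difference 5.33), the fatty acid hydroxylase Cyp4a10 (5.13), Piwil2 (5.05), which belongs to the piRNA-binding proteins, and Rdh7 (4.92). Tbx3os2 (5.10), a noncoding RNA named for its position opposite Tbx3, had 333, 295 and 321 against 9.98, 7.29 and 7.7. How reads were assigned to strand is not given in the sources used here, so reads of Tbx3os2 and Tbx3 cannot be told apart where they overlap. Gvin1 had 882, 1910 and 2870 against 240, 0 and 37.5, a log2 difference of 6.33 ± 2.02. Its close paralogs may share reads with it, so it is uncertain, and its adjusted p of 0.0115 became 0.0891 without BMP7 replicate III.

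Genes with the largest differences in favour of BMP7 were nearly silent with BMP4. The lipoxygenase Alox12 (ENSMUSG00000000320) was at 0 in all 3 BMP4 samples and had 189, 132 and 267 normalized counts with BMP7, at least 55.6-fold higher against a floor of 3 reads per library. In controls it had 0 to 2.49, as low as with BMP4. Fstl4 (ENSMUSG00000036264), a follistatin-like protein, had 0, 2.28 and 0 with BMP4 and 375, 344 and 226 with BMP7, at least 89.4-fold higher with BMP7, and lay between 79 and 97.7 in controls. The steroid 21-hydroxylase gene Cyp21a1 (ENSMUSG00000024365) was at 0 in all 4 controls, at 0 to 2.39 with BMP4 and at 98.9, 115 and 167 with BMP7, at least 36-fold higher. Stra6 (ENSMUSG00000032327), a receptor for retinol-binding protein, had 0, 1.14 and 0 against 109, 93.8 and 114, at least 30-fold higher with BMP7. Alox12, Cyp21a1 and Stra6 were thus at or under the floor with BMP4 and in controls alike.

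Other genes of this kind were well measured in controls, and there the BMP4 samples lay far below the controls. Nox1 (ENSMUSG00000031257), the epithelial NADPH oxidase, had 7.11, 3.42 and 15.6 normalized counts with BMP4, 1060, 878 and 997 with BMP7 and 290 to 1130 in controls. Prelp (ENSMUSG00000041577), a leucine-rich proteoglycan, had 2.37, 1.14 and 8.38 against 475, 451 and 321, under controls at 888 to 1290. The serotonin receptor Htr4 had 1.19, 0 and 3.59 against 238, 148 and 152, at least 50.9-fold higher with BMP7, and controls had 91.7 to 107. Gkn3, a gastrokine also known from intestinal stem cells, had 15.4, 11.4 and 10.8 against 1010, 964 and 1110, with controls between them at 338 to 502. The remaining named genes were Serpina9 (log2 difference -6.71), Dact3 (at least 35.9-fold higher with BMP7), Rassf10 (at least 43.3-fold) and the histone gene H2ac24 (at least 43-fold), which has near-identical copies and is uncertain.

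More BMP target genes were higher than lower with BMP4, and most rose against controls with either ligand. Of 14 BMP targets tested, 8 were higher with BMP4, 2 were lower and 4 did not pass the test, and the median log2 difference was 0.82 beside 0.00 for all genes. Of all genes 28.4% were higher and 31.4% lower. With the same total 5 of the 14 were higher and 3 lower, and by edgeR 6 and 2. Against controls, 11 of the 14 rose with BMP4, beside 33.7% of all genes (65.1% changed in either direction). With BMP7 11 rose, beside 19.2% of all genes (32.4% in either direction). Both comparisons use the same control samples. Id1 (ENSMUSG00000042745), an inhibitor of basic helix-loop-helix factors and the usual readout of the pathway, had 2560, 1960 and 3510 normalized counts with BMP4 and 2330, 1480 and 1800 with BMP7, against 112 to 171 in controls. The groups overlapped, and the difference of 0.50 ± 0.21 (adjusted p 0.0448) was lost under 10 of 17 alternatives.

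Id3 separated the ligands more clearly, with 3030, 1940 and 2670 against 1240, 698 and 594 and a log2 difference of 1.64 ± 0.45 (adjusted p 0.00413). Smad6 (ENSMUSG00000036867), an inhibitory Smad that BMPs induce as feedback, had 865, 773 and 1340 with BMP4, 211, 156 and 178 with BMP7 and 8.87 to 36.3 in controls. Its log2 difference was 2.41 ± 0.46 (adjusted p 0.000165), with no overlap. Smad7, the inhibitory Smad that Tgfb also induces, had 1800, 1150 and 1960 against 1290, 614 and 1020 (log2 difference 0.78, adjusted p 0.0203, lost under 4 alternatives). Id2 had 2420, 2200 and 1800 against 1200, 1450 and 900 (0.87, adjusted p 0.0445, lost under 8 alternatives).

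The homeobox gene Msx1 and the T-box repressor Tbx3 also differed strongly. Msx1 had 546, 337 and 485 normalized counts with BMP4 and 50.8, 30.1 and 36.6 with BMP7, an 11.6-fold ratio of the means, while controls had 3.3 to 6.22. Tbx3 had 7430, 6470 and 7880 against 1890, 1400 and 1390, a 4.65-fold ratio, over controls at 460 to 562. Gata2 was at the floor with BMP7 and had 3.56, 9.13 and 21.5 with BMP4. The 2 members that were lower with BMP4 were Smurf1, a ubiquitin ligase that limits Smad signalling (log2 difference -1.21), and the transcription factor Atoh8 (-1.44). Hey1 rose from 0 to 1.78 in controls to 11.4 to 27.5 with BMP4 and 13.7 to 29 with BMP7, and its difference between ligands was 0.14 ± 0.47 (adjusted p 0.813).

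Of the Tgfb targets more were lower than higher with BMP4. Of 13 tested, 2 were higher with BMP4, 7 were lower and 4 did not pass, with a median of -1.05. Over all genes 59.8% were called, 28.4% higher and 31.4% lower. Thrombospondin-1 (Thbs1), a matrix protein that activates latent Tgfb, had 258, 127 and 89.8 normalized counts with BMP4 and 8030, 5200 and 5390 with BMP7. Controls had 294 to 1620, so every BMP4 sample was below and every BMP7 sample above the control range. The log2 difference was -5.40 ± 0.53 (adjusted p 8.46e-08), a 39.2-fold ratio of the means. Fibronectin (Fn1) had 21.3, 24 and 19.1 against 339, 522 and 226. Connective tissue growth factor (Ccn2) had 211, 71.9 and 63.4 against 1910, 993 and 833, in which replicate II was the highest of each ligand. Pmepa1, a feedback inhibitor of Smad2/3, had 1030, 953 and 1870 against 9980, 6250 and 8250, a 6.35-fold ratio.

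Tgfbi and Cdkn2b were the exceptions in that list. The secreted matrix protein Tgfbi had 344, 240 and 262 normalized counts with BMP4 and 22.7, 30.1 and 22.1 with BMP7, with controls between them at 46.5 to 82.6. The cell cycle inhibitor Cdkn2b had 2050, 1920 and 1650 against 694, 573 and 803. Their log2 differences were 3.44 and 1.45. Skil rose against controls with both ligands (log2 change 2.15 with BMP4 and 2.43 with BMP7), and its difference between them was -0.28 ± 0.18 (adjusted p 0.184), which passed as lower with the same total (-0.61) and quantile normalization (-0.57). Col4a1 did not pass at adjusted p 0.267. With the replicate number as a block in limma it passed at 0.000229.

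**Figure D2:**
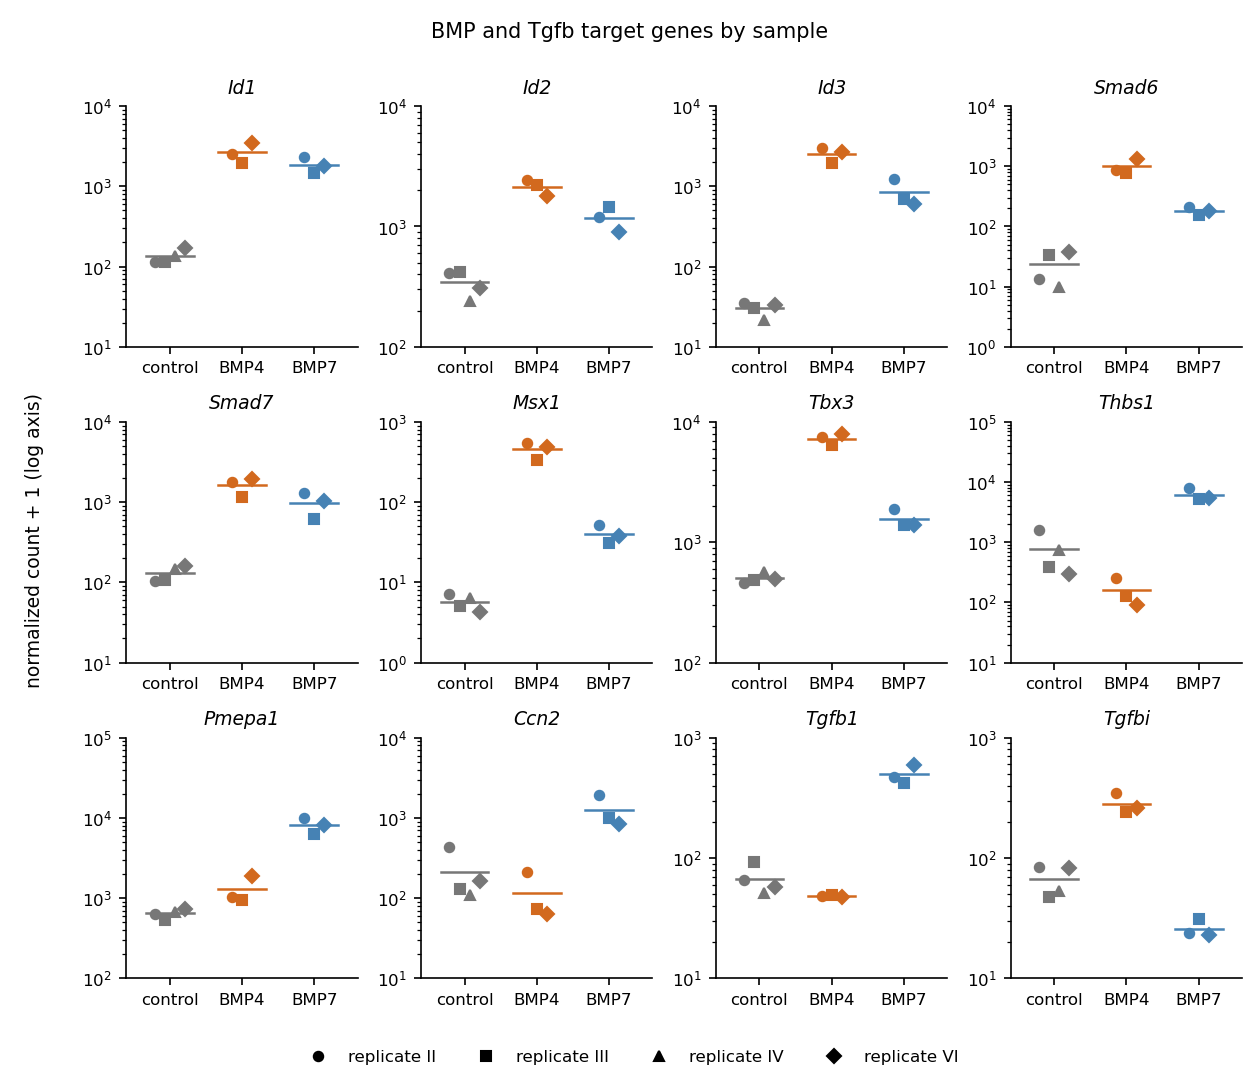
Each panel shows 1 gene, with normalized count + 1 on a log y axis and control, BMP4 and BMP7 samples on the x axis. Points are single samples, their shapes give the replicate number and bars are group means. Id1 and Smad7 overlap between the ligands, Smad6, Msx1 and Tbx3 are higher in every BMP4 sample, and Thbs1, Pmepa1, Ccn2 and Tgfb1 are higher in every BMP7 sample.

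In the list of family ligands made by the organoids themselves, 1 of 10 tested genes was higher with BMP4 and 7 were lower. The median log2 difference was -1.81. The shares over all genes were 28.4% higher and 31.4% lower. This list also counts Bmp1, which is a protease and not a ligand of the family. Tgfb1, which encodes the main Tgfb ligand, had 47.4, 47.9 and 46.7 normalized counts with BMP4, 473, 417 and 595 with BMP7 and 50.6 to 91.3 in controls. The organoids' own Bmp7 had 35.6, 36.5 and 40.7 with BMP4 and 162, 209 and 130 with BMP7, both below the controls at 422 to 592. Bmp4 was at the floor with BMP4 (0, 0 and 1.2) and had 18.1, 5.47 and 15.4 with BMP7, at least 3.69-fold higher. Bmp3 had 4.74, 6.84 and 1.2 against 25.4, 20 and 41.4, while controls had 1000 to 1330. Bmp1, a protease that cleaves the BMP inhibitor chordin (log2 difference -1.76), and Bmp8b (-1.09) were also lower with BMP4. The stress-induced Gdf15 was the member that was higher (1.53).

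Receptors differed by smaller factors. Of 9 tested, 2 were higher with BMP4 and 6 were lower, with a median of -0.83, beside 28.4% and 31.4% of all genes. The type I receptor Acvr1 (ALK2) had 582, 554 and 550 normalized counts with BMP4, 1320, 1120 and 1300 with BMP7 and 372 to 411 in controls, a log2 difference of -1.14 ± 0.12. Bmpr1a (ALK3) had 4570, 5480 and 4620 against 4510, 4550 and 3980, a difference of 0.17 ± 0.11 (adjusted p 0.186). The type II receptor Bmpr2 was lower with BMP4 (-0.62), as were Acvr2b (-1.06), Tgfbr1 (-0.83) and Tgfbr2 (-0.95), while the type II receptor Acvr2a was higher (0.70). The co-receptor Rgmb had 391, 341 and 377 against 903, 896 and 839, both well under the controls at 3270 to 3840. Acvr1b was higher at 0.45 (adjusted p 0.0187), and the call was lost with the same total, quantile normalization and edgeR.

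Among the Smads, Smad5 had 647, 574 and 556 normalized counts with BMP4 and 1620, 1410 and 1340 with BMP7 (log2 difference -1.30 ± 0.10). Smad3 was lower with BMP4 (-0.82) and so was Smad2 (-0.20, adjusted p 0.03, lost under 6 alternatives). Smad4 differed by -0.08 ± 0.08 (adjusted p 0.421), Smad1 by -0.18 ± 0.09 (adjusted p 0.108, and 0.0489 with the replicate block) and Smad9 by 1.12 ± 0.53 (adjusted p 0.0783). In all, 3 of these 6 were lower and 0 higher by limma, and 5 were lower by edgeR, where Smad1 (-0.29, adjusted p 0.00474) and Smad4 (-0.20, adjusted p 0.0392) also passed. Smad9 was higher by DESeq2 (adjusted p 0.0443), and 1 of the 6 was higher at an unadjusted p under 0.05. Of 6 antagonists tested, 3 were lower with BMP4 and 0 higher by limma, by edgeR and by DESeq2, and 4 were lower and 0 higher at an unadjusted p under 0.05. For Smads and antagonists alike, the share over all genes by limma was 59.8% called, 28.4% higher and 31.4% lower. Fstl1 had 98.4, 95.8 and 61 against 750, 630 and 695, follistatin (Fst) 24.9, 21.7 and 14.4 against 37.2, 61 and 88.5, and Twsg1 differed by -0.69. The decoy receptor Bambi had 55.7, 20.5 and 21.5 against 86.2, 58.3 and 43.3 (log2 difference -1.02, adjusted p 0.0598), and its adjusted p was 0.000287 with the replicate block.

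Enzymes of the brush border, the microvillus-covered surface where nutrients are digested, were higher with BMP4. All 16 tested passed, with a median log2 difference of 3.31 and 0 lower by limma, at an unadjusted p under 0.05, by edgeR and by DESeq2. By limma 28.4% of all genes were higher and 31.4% lower. With the same total 15 of the 16 passed, Mep1a being the one that did not. Lactase (Lct) had 8390, 11400 and 7810 normalized counts with BMP4 and 244, 550 and 512 with BMP7. Sucrase-isomaltase (Sis) had 93700, 96600 and 56900 against 4510, 8350 and 8120, and the controls, at 16200 to 37500, lay between the ligands. Trehalase (Treh) had 1930, 2110 and 1900 against 70.8, 120 and 183. The peptidase Enpep (log2 difference 4.14 ± 0.52) and the intestinal alkaline phosphatase Alpi (3.03 ± 0.22) were also among them. Against controls, 14 of these 16 genes were higher with BMP4 and 1 lower (background 33.7% higher and 31.4% lower). With BMP7 0 were higher and 11 lower (background 19.2% higher and 13.2% lower). In bulk samples, fewer enterocytes and less RNA per enterocyte cannot be told apart.

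Scaffold and motor proteins of the microvillus were likewise higher with BMP4, in 13 of 13 genes with a median of 1.82 (11 of them under quantile normalization). The share of all genes that were higher by limma was 28.4%. Espin (Espn), an actin bundler, had 2240, 2460 and 2250 normalized counts against 177, 266 and 332. Myo1a, the microvillus motor, had 25200, 23700 and 27700 against 4760, 4030 and 6520, and Anks4b, a scaffold of the tip link complex, 6330, 6370 and 7110 against 1610, 1580 and 2150. Villin (Vil1) had 41500, 40500 and 53200 against 18200, 15500 and 22700, and both ligands were above the controls at 8880 to 11300. Krt20, a keratin of differentiated villus cells, had 36000, 35200 and 59500 against 9190, 8810 and 18800, also above the controls (1510 to 2820). Eps8 (0.51) and Ezr (0.70) lost their calls under quantile normalization.

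Genes of fat and sterol handling had the same direction. Of 22 tested, 21 were higher with BMP4 and 0 lower by limma, by edgeR and by DESeq2, also at an unadjusted p under 0.05, with a median of 2.70. By limma 28.4% of all genes were higher and 31.4% lower. The fatty acid binding protein Fabp2 (ENSMUSG00000023057) had 45400, 42600 and 46600 normalized counts with BMP4, 1360, 1840 and 2450 with BMP7 and 2570 to 5010 in controls, a log2 difference of 4.61 ± 0.29. Fabp1 had 101000, 109000 and 57000 against 5080, 7730 and 7880. The fatty acid transporter Cd36 (3.46), Slc27a4 (3.28), the lipid transfer protein Mttp of chylomicron assembly (3.01) and the cholesterol importer Npc1l1 (3.04) were higher with BMP4 without overlap.

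Most transporters of sugars, peptides and ions were higher with BMP4. Of 15 tested, 12 were higher with BMP4 and 2 lower, with a median of 3.02, beside 28.4% and 31.4% of all genes. The sodium-glucose transporter Slc5a1 had 44200, 41700 and 27900 normalized counts against 2430, 3260 and 2950, and the peptide transporter Slc15a1 2040, 2010 and 2840 against 104, 136 and 280. The 2 lower members were Slc12a2 and Cftr, both known for chloride secretion by crypt cells. Slc12a2 had 3320, 2920 and 2290 with BMP4, 33200, 33800 and 21400 with BMP7 and 30400 to 43000 in controls. Cftr had 2650, 2380 and 2630 against 4990, 4960 and 4420. The water channel Aqp8 had 19, 11.4 and 25.1 against 3.63, 3.64 and 6.74 (adjusted p 0.0725, and 0.0188 with the replicate block).

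Promoters of genes at least 4-fold higher or lower with BMP4, of whatever function, were searched for short motifs, beside those of all genes. RefSeq promoter windows (build GRCm38.p6, 250 bases before to 50 after the start) were at hand for 10562 of 14734 tested gene symbols (71.7%). Only the first listed window of each gene was used, and 4163 of the 27025 genes with a window had more than 1. Both strands were searched for AAAGTCC, part of the motif of HNF4A, the nuclear receptor known for enterocyte genes, and for TGANTCA (AP-1), GGAATG (TEAD), GGCGCC (a GC-rich SMAD motif) and TATAAA (the TATA box). Treh, Alpi, Slc5a1 and Slc3a1, all higher with BMP4, are shown because their windows hold the HNF4A motif, and Ccn1, a matrix protein gene that was lower with BMP4, because its window holds TEAD and SMAD letters. They were chosen after the matches were seen. Ace, also higher with BMP4 and not shown, held an HNF4A motif match that began 104 bases before its start. Id3 and Smad6, likewise higher and not shown, held no HNF4A motif match in the 250 bases before theirs. Each run is the 250 bases before the start, 5′ to 3′ on the gene's strand, and capitals mark a match of any of these motifs, of which 2 TATAAA matches overlap in Slc3a1.
Treh (chr9:44672983-44673232, plus strand): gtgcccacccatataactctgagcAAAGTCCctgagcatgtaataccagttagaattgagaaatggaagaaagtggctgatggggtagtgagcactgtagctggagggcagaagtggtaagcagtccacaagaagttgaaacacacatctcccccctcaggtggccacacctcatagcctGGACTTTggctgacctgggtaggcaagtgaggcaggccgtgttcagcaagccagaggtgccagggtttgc
Alpi (chr1:87101607-87101856, minus strand): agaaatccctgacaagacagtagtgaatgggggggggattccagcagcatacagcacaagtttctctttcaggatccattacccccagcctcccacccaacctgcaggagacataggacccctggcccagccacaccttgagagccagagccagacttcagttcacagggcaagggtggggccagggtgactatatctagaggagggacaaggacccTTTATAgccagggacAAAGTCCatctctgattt
Slc5a1 (chr5:33103969-33104218, plus strand): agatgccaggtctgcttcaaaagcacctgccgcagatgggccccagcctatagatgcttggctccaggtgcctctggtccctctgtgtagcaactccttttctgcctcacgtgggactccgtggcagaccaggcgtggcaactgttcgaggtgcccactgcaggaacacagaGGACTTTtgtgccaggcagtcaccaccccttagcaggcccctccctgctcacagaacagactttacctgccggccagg
Slc3a1 (chr17:85028097-85028346, plus strand): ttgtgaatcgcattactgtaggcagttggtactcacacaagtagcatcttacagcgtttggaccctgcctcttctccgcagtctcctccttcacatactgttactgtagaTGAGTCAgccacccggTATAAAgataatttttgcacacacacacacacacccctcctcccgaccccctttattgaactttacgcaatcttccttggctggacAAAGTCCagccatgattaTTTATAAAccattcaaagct
Ccn1 (chr3:145649986-145650235, minus strand): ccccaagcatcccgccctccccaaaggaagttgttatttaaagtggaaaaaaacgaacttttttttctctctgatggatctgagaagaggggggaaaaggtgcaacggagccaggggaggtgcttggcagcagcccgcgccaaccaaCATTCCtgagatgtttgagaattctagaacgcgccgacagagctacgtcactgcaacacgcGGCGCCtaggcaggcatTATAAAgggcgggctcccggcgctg

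AAAGTCC or its reverse complement was found in 48 of 427 windows (11.2%) of genes at least 4-fold higher with BMP4. It was in 18 of 579 (3.11%) of genes at least 4-fold lower, in 4.05% of all genes tested and in 4.25% of the 27025 windows used. Treh held 2 matches, which began 226 and 70 bases before the start, and Alpi, Slc5a1 and Slc3a1 held matches that began 18, 78 and 38 bases before it. TATAAA was in 18% of windows of the higher and 8.98% of the lower genes, beside 7.87% of all genes tested and 14.2% of all windows used. TGANTCA was in 9.13% and 5.7%, beside 5.39% and 7.93%. GGCGCC was in 12.9% of the higher and 21.4% of the lower genes, beside 20.9% of all genes tested and 12% of all windows used. GGAATG was in 15.9% and 14.7%, beside 12.1% and 14.6%. Ccn1 held 1 GGAATG match that began 103 bases before its start. Base composition moved with these shares, since mean GC content was 54.2% in the windows of the higher genes, 61.4% in the lower genes and 60.3% in all genes tested, and its part in the shares was not tested. Whether any match is bound was not measured.

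**Figure D3:**
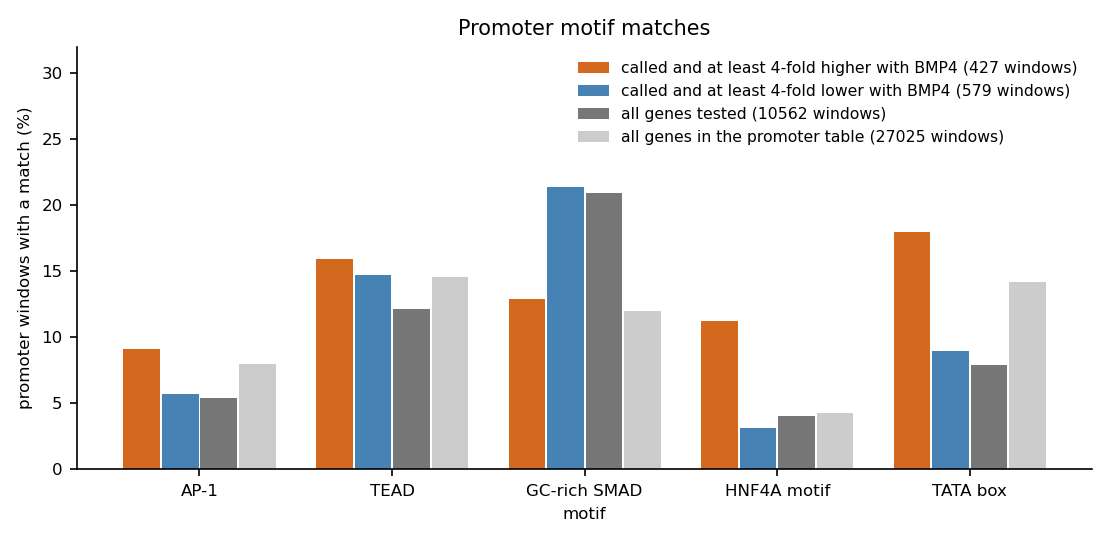
Bars give the percentage of RefSeq promoter windows that hold each motif on either strand, for genes called and at least 4-fold higher with BMP4 (427 windows), at least 4-fold lower (579), all genes tested (10562) and all genes of the promoter table (27025). The HNF4A motif stands at 11.2% in the higher genes and at 3.11% to 4.25% in the other sets.

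Transcription factors of enterocytes were higher with BMP4 in 12 of 19 tested, with 3 lower and a median of 0.99. The shares over all genes were 28.4% higher and 31.4% lower. The basic leucine zipper factor Maf (c-Maf) had 7240, 6040 and 7820 normalized counts with BMP4, 372, 359 and 331 with BMP7 and 151 to 240 in controls, a log2 difference of 4.30 ± 0.20 (adjusted p 1.78e-11). Klf4, a factor of villus cells, had 7710, 6380 and 8920 against 917, 719 and 873, with controls at 432 to 608. Hnf4g had 12200, 10600 and 12400 against 1180, 1170 and 1560 and Hnf4a 32100, 32200 and 41600 against 17600, 16700 and 18700. Hnf4a differed 2-fold and Hnf4g 9-fold in the means, and the BMP7 samples of Hnf4g lay below all controls (1810 to 2890).

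Ppara (2.82), Creb3l3 (2.41), Gata4 (1.23), Gata6 (1.15), Isx (1.31), Nr5a2 (1.44) and Cdx2 (0.73) were also higher with BMP4, the last losing its call with the same total. Gata5 (-1.01) and Cdx1 (-0.39) were lower. Prdm1, a repressor that marks the immature suckling intestine, had 297, 273 and 276 against 323, 226 and 218 (log2 difference 0.16 ± 0.32, adjusted p 0.684), both above controls at 24 to 58.6.

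Villus tip markers were divided. Of 12 tested, 7 were higher with BMP4, 1 was lower and 4 did not pass, beside 59.8% of all genes called (28.4% higher and 31.4% lower). The ectonucleotidase Enpp3 had 7370, 7760 and 14700 normalized counts against 370, 529 and 955, and adenosine deaminase (Ada) 2950, 5090 and 10400 against 868, 1430 and 3990 with overlap (log2 difference 1.66, adjusted p 0.0292, lost with the same total). Nt5e (CD73), which makes adenosine, had 306, 240 and 546 against 313, 223 and 456, while controls had 9.13 to 27.5. Its difference between ligands was 0.11 ± 0.54 (adjusted p 0.875). The purine nucleoside transporter Slc28a2 had 319, 671 and 2010 against 387, 713 and 1770, Fos 1370, 1590 and 2860 against 1690, 1480 and 3190, and Junb 1800, 1600 and 2140 against 1700, 1460 and 2360. In Slc28a2 replicate II was lowest and replicate VI highest with either ligand. Nt5e, Slc28a2, Fos and Junb all rose against controls with both ligands, with log2 changes of 1.79 to 4.23 for BMP4 and 1.77 to 4.12 for BMP7, and did not pass the test between the ligands. Egfr, the EGF receptor, went the other way, with 1960, 2000 and 2710 with BMP4, 7230, 5570 and 6900 with BMP7 and 1170 to 1510 in controls (-1.57 ± 0.18).

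**Figure D4:**
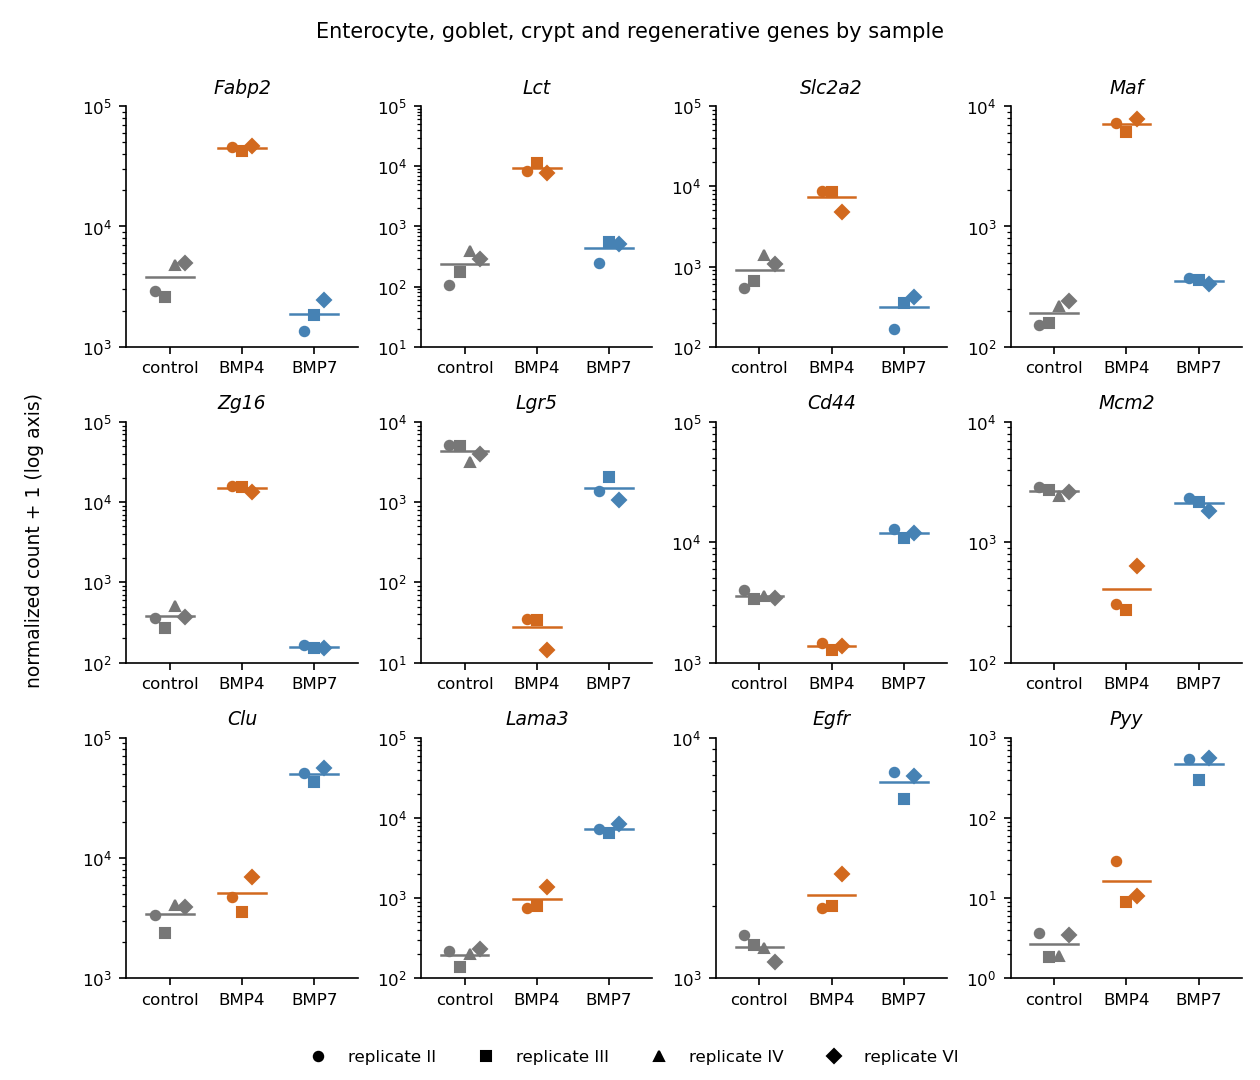
Each panel shows 1 gene with normalized count + 1 on a log y axis, for control, BMP4 and BMP7 samples on the x axis. Points are samples with shapes by replicate number, and bars are group means. Fabp2, Lct, Slc2a2, Maf and Zg16 are higher in every BMP4 sample, and Lgr5, Cd44, Mcm2, Clu, Lama3, Egfr and Pyy are higher in every BMP7 sample.

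Crypt stem cell genes were lower with BMP4 in 16 of 17 cases, beside 31.4% of all genes, with a median of -2.39. None was higher by limma, by edgeR, by DESeq2 or at an unadjusted p under 0.05. Lgr5 (ENSMUSG00000020140), the R-spondin receptor of intestinal stem cells, had 34.4, 33.1 and 13.2 normalized counts with BMP4, 1360, 2050 and 1070 with BMP7 and 3150 to 5210 in controls, a log2 difference of -5.80 ± 0.43 and a 55.5-fold ratio of the means. Ascl2, a stem cell transcription factor, had 30.8, 10.3 and 20.3 against 439, 349 and 363, with controls at 290 to 363, which the BMP7 samples overlapped. Olfm4, a Notch-dependent stem cell marker, had 1550, 1520 and 3250 against 19300, 18000 and 23400, and both were below the controls (84000 to 110000). Cd44 had 1460, 1260 and 1380 against 13000, 10800 and 11900, with controls between them at 3350 to 4000. Axin2, a direct Wnt target, was the member that did not pass, at 3660, 1910 and 3030 against 4190, 2640 and 2660 (-0.16 ± 0.24, adjusted p 0.588). Against controls, 16 of the 17 fell with BMP4 (background 31.4%), and 5 rose and 6 fell with BMP7 (background 19.2% and 13.2%).

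Cell cycle genes were lower with BMP4 in 16 of 18 cases, beside 31.4% of all genes, with a median of -1.45 (18 cases with the same total). The replication helicase subunit Mcm2 had 308, 273 and 633 normalized counts with BMP4 and 2350, 2140 and 1810 with BMP7. Mcm3 (-2.48) and Mcm5 (-2.34) were close to it in size, and Top2a had 1950, 2180 and 3410 against 11300, 11900 and 6950. The proliferation antigen Mki67 had 2970, 3490 and 3930 against 9380, 13100 and 4490 (-1.25, adjusted p 0.0292), in which BMP7 replicate VI was near the BMP4 samples. Ccnb2 and Birc5 did not pass (adjusted p 0.126 and 0.197). Against controls all 18 fell with BMP4 (background 31.4%). With BMP7 only Tyms fell (background 13.2%), with the other 17 past the threshold in neither direction by limma. The cell cycle inhibitor Cdkn1a (p21) had 8380, 10800 and 10600 against 2560, 2990 and 4230 and was higher than in controls with either ligand.

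**Figure D5:**
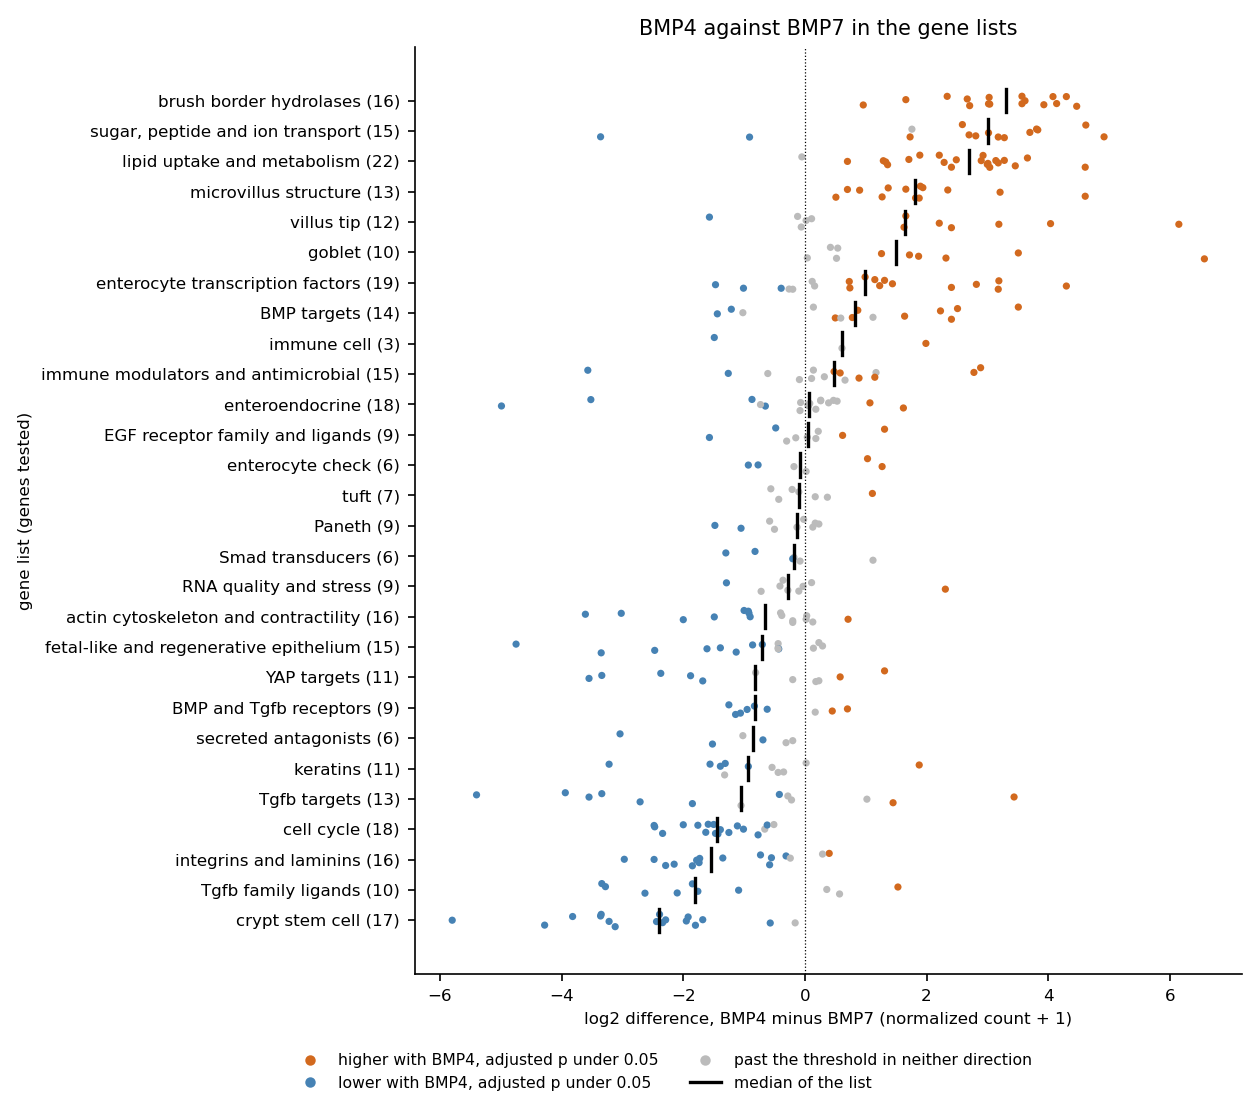
Each point is 1 gene of a list, placed by its log2 difference, BMP4 minus BMP7, on the x axis, with the lists that have at least 3 genes tested on the y axis and the number tested in brackets. Orange and blue points passed an adjusted p of 0.05 as higher or lower with BMP4, grey points did not, and black bars are list medians, from 3.31 for brush border hydrolases to -2.39 for crypt stem cell genes.

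Genes of the fetal-like state that intestinal epithelium takes up during repair were in part higher with BMP7. Of 15 tested, 0 were higher with BMP4 by limma, 9 were lower and 6 did not pass, with a median of -0.70. The share called was near the 59.8% of all genes (28.4% higher and 31.4% lower). None was higher by edgeR, by DESeq2 or at an unadjusted p under 0.05 either, and with the same total 12 were lower. Clusterin (Clu) had 4770, 3540 and 6950 normalized counts with BMP4, 50900, 43100 and 56500 with BMP7 and 2390 to 4110 in controls. Its log2 difference was -3.35 ± 0.33 (adjusted p 1.07e-07). Annexin A1 (Anxa1) had 1470, 1200 and 1800 against 8020, 6560 and 10200. Osteopontin (Spp1) was at the floor with BMP4 (1.19, 2.28 and 1.2) and had 77.1, 72.9 and 52 with BMP7, at least 19.1-fold higher. Against controls 14 of the 15 rose with BMP7 (background 19.2%) and 11 with BMP4 (background 33.7%). Among them were Anxa2 and S100a6, whose differences between ligands were -0.44 each (adjusted p 0.0974 and 0.2).

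Of 11 tested targets of the mechanosensitive coactivator YAP, 5 were lower with BMP4 and 2 higher, a share called near the 59.8% of all genes. Ccn1, whose promoter is printed above, had 151, 122 and 55 normalized counts with BMP4 and 1430, 831 and 904 with BMP7 (-3.34 ± 0.54). Controls of Ccn1 ran from 145 to 837, with replicate II the highest. Ajuba had 427, 359 and 377 against 2500, 1660 and 1930, and Tead1, the DNA-binding partner of YAP, 953, 916 and 967 against 3350, 3020 and 2760. The EGF receptor ligand Ereg was higher with BMP4 at 474, 719 and 754 against 145, 234 and 494, with overlap. Areg, another such ligand, had 3220, 3730 and 2390 against 2260, 2620 and 3340 (0.18 ± 0.24, adjusted p 0.544). Of the 9 EGF receptor family and ligand genes tested, 2 were higher and 2 lower, a smaller share than the 59.8% of all genes.

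Most genes of adhesion to the matrix differed in RNA level, and adhesion itself was not measured. Of 16 integrins and laminins tested, 13 were lower with BMP4 and 1 was higher, with a median of -1.54, beside 31.4% and 28.4% of all genes. The laminin chain Lama3 had 747, 802 and 1360 normalized counts with BMP4, 7250, 6420 and 8400 with BMP7 and 139 to 230 in controls, and it rose against controls with both ligands. The collagen receptor subunit Itga2 had 2190, 2390 and 2120 against 10800, 9940 and 9000, and Itgb6, which takes part in activating latent Tgfb, 997, 1040 and 1300 against 4340, 3320 and 4420. The higher member was Itga3 (0.40, adjusted p 0.0361), a call lost with the same total, quantile normalization and edgeR.

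Among cytoskeletal genes, 8 of 16 were lower with BMP4 (12 with the same total and 13 under quantile normalization) and 1 was higher, with a median of -0.65. By limma the share called was near the 59.8% of all genes (28.4% higher and 31.4% lower). Filamin A (Flna) had 1390, 1290 and 918 normalized counts against 10800, 9710 and 8360, and moesin (Msn) 14.2, 6.84 and 19.1 against 171, 149 and 167, with controls of Msn at 4.96 to 16. The actin gene Actb had 117000, 107000 and 138000 against 110000, 89900 and 134000 (0.13 ± 0.20, adjusted p 0.598), and was lower under quantile normalization (-0.46, adjusted p 0.025). The alpha-actinins parted, Actn1 being lower (2790, 2710 and 3810 against 13100, 10300 and 13600) and Actn4 higher (0.71) with BMP4, the latter call being lost under quantile normalization. Of 11 keratins, 5 were lower (8 with the same total or quantile normalization) and 1, Krt20, was higher, by limma also a share near 59.8%. Krt14, a keratin of basal cells in stratified epithelia, had 11.9, 18.3 and 139 against 289, 205 and 467, with 1.65 to 3.55 in controls. Krt8, the chief simple-epithelial keratin, had 99100, 88900 and 142000 against 108000, 83700 and 132000 (0.02 ± 0.22, adjusted p 0.939), and was lower under quantile normalization (-0.53, adjusted p 0.0453).

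Goblet cell genes were higher with BMP4 in 6 of 10 cases, with 0 lower by limma, by edgeR, by DESeq2 and at an unadjusted p under 0.05, and a median of 1.49. The share called was near the 59.8% of all genes (28.4% higher and 31.4% lower). Under quantile normalization 8 were higher. The secreted metalloprotease Clca1 had 11700, 11300 and 11400 normalized counts against 1190, 874 and 969, and the mucus protein Fcgbp 74900, 87900 and 52300 against 24700, 25100 and 11300. The main mucin Muc2 had 13000, 19500 and 4160 against 2520, 4570 and 731 with overlap (2.32 ± 0.73, adjusted p 0.0107), and the call was lost without BMP4 replicate III (0.0611) or BMP7 replicate VI (0.078). The lineage factors Atoh1 and Spdef did not pass (adjusted p 0.122 and 0.0874), and Atoh1 passed at 0.0051 with the replicate block.

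Of 18 enteroendocrine genes, 2 were higher with BMP4, 4 were lower and 12 did not pass, beside 59.8% of all genes past the threshold. With the same total 1 was higher and 5 lower, and under quantile normalization 3 were higher and 2 lower. Pyy, the peptide YY hormone of distal L cells, had 28.4, 7.99 and 9.57 normalized counts with BMP4, 536, 298 and 562 with BMP7 and 0.83 to 2.66 in controls (-4.99 ± 0.74). The progenitor factor Neurog3 was at the floor with BMP4 and had 21.8, 23.7 and 18.3 with BMP7, at least 6.04-fold higher, under the controls at 110 to 193. Secretin (Sct) had 770, 692 and 555 against 207, 218 and 222, over controls at 25.8 to 35.5, and neurotensin (Nts) was also higher (1.07), a call lost with the same total. Chromogranin A (Chga), a pan-endocrine granule protein, had 1750, 1460 and 705 against 1220, 1010 and 850 (0.26 ± 0.33, adjusted p 0.512).

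Of 9 Paneth cell genes, 2 were lower with BMP4, 7 did not pass and 0 were higher by limma, by edgeR, by DESeq2 and at an unadjusted p under 0.05. Over all genes 59.8% were called by limma. Habp2 (-1.48) and Nupr1 (-1.05) were the lower members, and 4 were lower with the same total or quantile normalization. Lysozyme (Lyz1) had 46300, 44600 and 21700 normalized counts against 31000, 37900 and 29400 (0.13 ± 0.29, adjusted p 0.733). The alpha-defensins Defa17, Defa22 and Defa24 are near-identical copies and are uncertain as single genes. Among 7 tuft cell genes, 1 was higher with BMP4, also beside 59.8% of all genes called. Dclk1, Trpm5 and Pou2f3 did not pass (adjusted p 0.432, 0.409 and 0.18). With the same total 3 tuft genes were lower, Trpm5 (-0.53), Pou2f3 (-0.75) and Sh2d6 (-0.87).

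Of 15 immune modulators and antimicrobial genes, 6 were higher with BMP4 and 2 lower, beside 28.4% and 31.4% of all genes. The chemokine Ccl25, which draws gut-homing lymphocytes, had 6890, 6480 and 4720 normalized counts with BMP4, 665, 854 and 915 with BMP7 and 2600 to 3570 in controls (2.89 ± 0.21). Interleukin 18 (Il18) had 2460, 2630 and 1440 against 239, 310 and 386. The polymeric immunoglobulin receptor Pigr had 38500, 38100 and 24400 against 14800, 17200 and 12900, with controls at 41300 to 46400. Cxcl16 (-1.26) and Cxcl1 (-3.57) were lower with BMP4. The lectin Reg3b had 1210, 1300 and 1330 against 634, 956 and 1790 (adjusted p 0.773). It shares sequence with Reg3a and Reg3g, so their counts may be split between copies.

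Few markers of cells outside the epithelium were high enough to test. Acta2, of smooth muscle and fibroblasts, had 9.48, 1.14 and 3.59 normalized counts with BMP4 and 101, 19.1 and 12.5 with BMP7, and its adjusted p of 0.0102 became 0.0596 without BMP4 replicate III and 0.0806 without BMP7 replicate II. Summed over the 8 mesenchymal genes in the table, of which 1 was tested, the level was 14.23 to 29.88 with BMP4 and 34.61 to 123.7 with BMP7, and that of the 8 immune cell genes was 140.4 to 250.3 and 68.25 to 90.68, of which 3 were tested. Itgam was higher with BMP4 (165, 170 and 114 against 39, 36.4 and 33.7), Csf1r was lower (9.48, 4.56 and 3.59 against 22.7, 19.1 and 11.5), and Lyz2 did not pass (adjusted p 0.213). Cd79a and Adgre1 were at 0 to 3.42. Their part in the differences above was not tested. Among 9 stress genes, Ddit3 (CHOP), a factor of the unfolded protein response, was higher with BMP4 at 754, 800 and 524 against 174, 138 and 106, and Egr1 was lower at 339, 526 and 590 against 833, 1030 and 1810. The table holds a further entry with the symbol Ddit3, which was left out.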

How the data were processed

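KAPA mRNA HyperPrep libraries made from total RNA of mouse organoids were sequenced single-end on a NextSeq 500 in more than 1 run, and the runs are not assigned to samples in the sources used here. Trim Galore, Salmon, DESeq2 and the build GRCm39 are named, without versions, per the submitters' processing notes. The authors deposited a normalized signal, gene counts divided by a size factor and kept to 3 significant digits. Low values gave whole reads (100% of 180721 values of up to 20 reads, within 0.1 reads), so read counts were recovered for edgeR 4.0.16 and DESeq2 1.42.0 as alternatives, while 21% of values above 0 exceed 999 reads and are known only to that rounding. The main test was limma 3.58.1 (R 4.3.3, trend, 2-sided) on log2(value + 1), which understates changes of low genes. It used 14746 of 29413 genes whose mean across all 20 samples reached 10, 6 group means and Benjamini-Hochberg adjustment at 0.05. It was also run on simulated data with few changed genes, changes with BMP4 alone and no replicate effect. That setting differs from these data, so the run cannot give their error rate. The lower limit for folds was 3 reads per library, which covers counting error only.

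Replicate numbers come from the sample titles. Deviations from the group means correlated at 0.206 (II), 0.293 (III) and 0.239 (VI) between the same numbers over 14746 genes. Between different numbers they correlated at -0.242 to -0.0028. Deviations cancel out within each ligand, so positive values between the same numbers make those between different numbers negative on average. The numbers were taken to pair the samples, but the main fit left the pairing out. It entered as the replicate block, by which 9976 genes differed beside 8818. Besides the 12 largest and 12 smallest differences, the genes named are Id1, Id2, Id3, Smad6, Smad7, Bmp4, Bmp7, the 4 members of each list with the largest differences and other list members. Predicted genes were skipped, and some list members are counted but not reported by name here. The comparison and the 31 gene lists were chosen with earlier results of these data known. Alternatives were other pseudocounts (0.1 and 10), filters, scalings, sets of samples and tools, the replicate block and leaving out each replicate.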

Additional observations from a re-analysis of the deposited data

Results flagged for a closer look

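For 16 of 135 genes tested, 1 of the 4 control samples lay far from the other 3 by Dixon's test, which chance does in about 1 in 20 groups. Ccn1 had 837 normalized counts in control replicate II against 145 to 195 in the others, Ccn2 437 against 109 to 165 and Bambi 102 against 41.3 to 46.5, all in the same sample. Fosb (27.5 against 3.32 to 6.61), Smad2 (1370 against 1190 to 1210) and Twsg1 (1520 against 1310 to 1340) were also highest there. Control replicate IV was highest for Fn1 (40.8 against 17.4 to 20.6), Tnfrsf19 (588 against 267 to 314), Neurog3 (193 against 110 to 123) and Hspa1b (835 against 437 to 448). Control replicate VI was highest for Ascl2 (363 against 290 to 298) and Cdh17 (20200 against 18000 to 18100) and lowest for Acvr2b (89.2 against 124 to 127). For Tbx3os2 and Gata2 (0.887 each) and Bmp4 (0.83) the outlying control held a value of about 1 read and the others 0. None of these samples enters the difference between BMP4 and BMP7 itself, apart from the shared estimate of the spread.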

How the results depend on the processing

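The count of genes that differed lay between 7824 (mean of at least 50) and 9976 under all alternatives, beside 8818. It was 8894 with edgeR, 8986 with DESeq2, 8220 with only the 6 samples, and 8066 to 8573 with 1 replicate left out (3833 to 3951 higher and 4185 to 4622 lower). With the same total in every sample 2668 genes were higher, and the median of all genes moved to -0.325. With the replicate block 9976 genes differed, 4822 higher and 5154 lower. Beside the genes given with their blocked values in the report, the block brought in, among list genes, Smad1, Anxa2 (adjusted p 0.0259), Krt23 (0.0325), Krt6a (0.0352), Ankrd1 (0.0292), Erbb2 (0.0109), Gcg (0.0375), Tph1 (0.00878), Klk1 (0.00949), Reg3a (0.0499), Nlrp6 (0.0492), Hspa1b (0.017), Elf3 (0.0372) and Id4 (0.0267), by limma.

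Of 136 genes named by rule, 114 kept direction and side of the threshold under every alternative. Over 2297 pairs of gene and alternative, 2232 did so, 41 lost and 23 gained the call, and S100b turned sign (-0.01 to 0.81 with 1 replicate left out, the lowest without BMP7 replicate III). Signs turned for medians near 0, and the cause was not tested. The EGF receptor family median became -0.29 (same total) and -0.06 (quantile normalization, edgeR). The enteroendocrine median became -0.26 (same total) and ran from -0.15 (without BMP4 replicate II) to 0.41 with 1 replicate left out, at -0.06 without BMP4 replicate III or BMP7 replicate VI. The tuft median became 0.17 (mean of at least 50) and 0.12 (quantile normalization). With 1 replicate left out the tuft median ran from -0.12 to 0.14 (highest without BMP7 replicate II), the Paneth median from -0.30 to 0.18 (highest without BMP4 replicate VI) and the epithelial check from -0.21 to 0.03 (0.01 without BMP4 replicate III, 0.03 without BMP7 replicate VI). Depth was similar in all samples, and genes at or under 3 reads have only bounds.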
